A study of Mus musculus with 6 samples.

Results

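The expression of 9 genes for surface proteins that divide the LSK gate was followed: Procr, Slamf1, Esam, Ly6a, Cd9, Cd27, Cd34, Cd48 and Flt3. The LSK gate (lineage-negative, Sca1-positive, cKit-positive marrow cells) holds haematopoietic stem cells and the multipotent progenitors that they give rise to. The members were the rows of the deposited expression table whose symbol equalled 1 of these names exactly, which found all 9 of 9 among 38926 symbols. RNA was sequenced from LSK cells sorted from femur and tibia marrow of untreated C57BL/6 mice aged 8 to 12 weeks. Of the 6 libraries, 3 carry a wild type label (WT) and 3 a double knockout label (KO), which names Drd2 and Drd3, the genes of the dopamine receptors D2 and D3, as knocked out. The labels give neither the allele design nor the number of animals behind a library, so the p-values cover only how far these libraries vary, which may be technical.

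Surface markers split the LSK gate because stem cells and their immediate progeny carry the gate's own antigens alike and differ in others. Stem cells with long-term activity carry EPCR (the protein of Procr), CD150 (Slamf1) and ESAM, and lack or are low in CD48, CD34 and FLT3. Multipotent progenitors gain CD48 and CD34, and those primed towards lymphocytes gain FLT3. Sca1 (Ly6a) is an antigen of the gate itself, CD27 is a receptor of the tumour necrosis factor receptor family, and CD9 is a membrane-organising tetraspanin.

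Of the stem-cell-side genes, Slamf1, Esam and Procr rose in the KO-labelled libraries. Cd9, whose protein is also enriched on stem cells, did not pass the test, with a log2 difference of 0.34. Of the progenitor-side genes, Flt3 and Cd34 fell, while Cd48 did not pass the test, with a log2 difference of 0.05. Slamf1 went from 1.73 ± 0.708 to 9.91 ± 2.20 FPKM (means ± SD of 3 libraries, here and below) and Flt3 from 82.7 ± 9.76 to 34.9 ± 3.45 FPKM. FPKM divides reads by gene length and library depth, so levels of different genes are compared per length. Cd48, Cd27, Ly6a and Cd9 did not pass the test. The test was limma on log2(FPKM + 1), with a gene called at a Benjamini-Hochberg adjusted p under 0.05 over the 11371 genes whose mean reached 1 FPKM. All 9 members passed this filter. Of them 5 were called, 3 higher and 2 lower. Of all genes tested, 10.9% were called (5.48% higher and 5.43% lower). The median log2 difference was 0.11 over the 9 members and -0.002 over all genes tested. In bulk RNA, fewer cells of a type and less RNA per cell cannot be told apart.

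**Figure D1:**
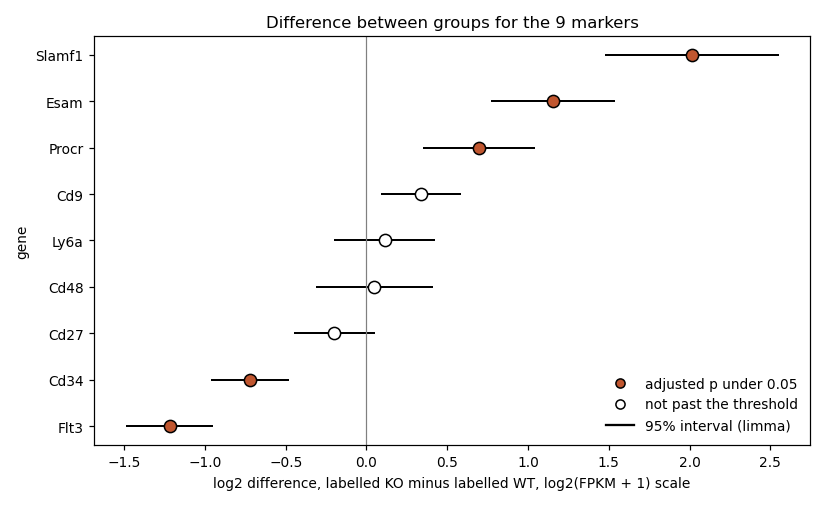
Difference between the KO-labelled libraries and the WT-labelled ones for the 9 markers, on the log2(FPKM + 1) scale, with 95% intervals from limma. Filled points passed an adjusted p of 0.05: Slamf1, Esam and Procr lie to the right of 0 and Cd34 and Flt3 to the left. The intervals of Ly6a, Cd48 and Cd27 span 0. The interval of Cd9, which did not pass, lies above 0.

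Several facts of the libraries bear on every direction given here. Drd2 was listed at 0 in all 6 libraries. Drd3 was at 0 in the 3 WT-labelled libraries and at 1.62, 3.08 and 3.04 FPKM (17, 31 and 24 reads) in the KO-labelled ones. This is the opposite of a loss of Drd3 reads under the KO label. Without the allele design, such reads cannot show whether the labels hold, so each direction is between libraries as labelled. Recovered reads came to 5244127 to 7143605 per library. The Y-linked gene Ddx3y was at 12.5 to 15.1 FPKM in 4 libraries and at 0 in KO replicates 1 and 3. Xist, which female cells express, was at 1.96 and 2.01 FPKM (253 and 195 reads) in KO replicates 1 and 3 and at 0 in the others. By these 2 genes, KO replicates 1 and 3 look female and the other libraries male. The immunoglobulin gene Igkc was at 3182 and 1173 FPKM in KO replicates 1 and 3 and at most 4.93 FPKM in the others. Member levels are therefore also given for KO replicate 2 alone. Fits of that library against the WT-labelled ones take their spread from the WT-labelled libraries only and assume that the lone library varies as they do. The gate's antigens were present in every library: Kit at 82.5 to 150 FPKM and Ly6a at 110 to 161 FPKM, and neither passed the test. Of 6 antigens common in lineage cocktails (Cd3e, Cd4, Cd8a, Cd5, Itgam and Ly6g), the summed level was 8.86 to 11.5 FPKM in the WT-labelled libraries and 5.75 to 7.20 FPKM in the KO-labelled ones.

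The sequences before the start sites of the called members are shown because these genes moved in 2 directions. The bases are the 250 before the RefSeq transcript start, from the GRCm38.p6 build, and 7 of the 9 members matched by symbol (all but Ly6a and Esam). Each window was searched on both strands for 4 motifs of factor families that act in blood cells. The RUNX motif was searched as TGTGGT and the GATA motif as AGATAA. The ETS motif was searched as AGGAAG and the E-box as CAGCTG. Capitals mark a match. Slamf1 lies at chr1:171766882-171767131 and Procr at chr2:155750967-155751216, both on the plus strand, and both rose in the KO-labelled libraries.
Slamf1: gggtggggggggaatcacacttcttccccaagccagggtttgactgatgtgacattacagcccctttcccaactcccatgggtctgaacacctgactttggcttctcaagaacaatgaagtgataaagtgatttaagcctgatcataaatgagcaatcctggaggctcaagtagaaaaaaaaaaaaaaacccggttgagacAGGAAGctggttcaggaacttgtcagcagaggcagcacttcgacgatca
Procr: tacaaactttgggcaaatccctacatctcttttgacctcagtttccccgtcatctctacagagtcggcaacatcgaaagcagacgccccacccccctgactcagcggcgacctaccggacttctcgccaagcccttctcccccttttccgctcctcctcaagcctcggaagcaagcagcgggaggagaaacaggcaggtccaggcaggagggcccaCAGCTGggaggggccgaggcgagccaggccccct
Cd34 lies at chr1:194938571-194938820 on the plus strand and Flt3 at chr5:147400490-147400739 on the minus strand, and both fell.
Cd34: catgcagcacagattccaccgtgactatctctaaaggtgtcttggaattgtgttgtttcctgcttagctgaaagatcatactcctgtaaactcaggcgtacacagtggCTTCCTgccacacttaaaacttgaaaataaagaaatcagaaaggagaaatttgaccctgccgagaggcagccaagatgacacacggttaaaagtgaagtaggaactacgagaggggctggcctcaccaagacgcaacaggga
Flt3: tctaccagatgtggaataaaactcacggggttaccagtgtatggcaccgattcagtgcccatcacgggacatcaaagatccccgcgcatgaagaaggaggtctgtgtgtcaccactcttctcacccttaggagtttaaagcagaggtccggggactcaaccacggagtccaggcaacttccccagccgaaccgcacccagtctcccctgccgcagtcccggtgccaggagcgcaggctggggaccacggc
Slamf1 held 1 ETS match, Cd34 1 ETS match on the opposite strand, and Procr 1 E-box match, which ends 29 bases before the RefSeq start. The Procr window reaches past the GENCODE M21 gene start at 155751117, so its match lies inside the gene as annotated there. No motif overlapped another in these windows, and Flt3 held no match. Among 32851 windows of the same length, 29.5% held the ETS letters, 13.0% the E-box, 14.0% the RUNX letters and 9.99% the GATA letters on either strand. The unprinted window of Cd9 held an ETS and an E-box match, that of Cd48 a RUNX match and that of Cd27 none. The base composition also differed, with a GC content of 61.6% for Procr and 59.2% for Flt3 against 47.2% for Slamf1 and 46.4% for Cd34.

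Slamf1 (chromosome 1, 171767127 to 171801184, GRCm38) encodes CD150, a self-binding receptor of the signalling lymphocyte activation molecule (SLAM) family that marks stem cells. It was at 0.942, 1.96 and 2.31 FPKM in the WT-labelled libraries (replicates 1 to 3, the order kept below), and at 8.27, 9.06 and 12.4 FPKM in the KO-labelled ones. The groups did not overlap, and the lowest KO-labelled library stood 3.59-fold above the highest labelled WT. The ratio of the means was 5.72. On the log2(FPKM + 1) scale, which understates the change of low genes, Slamf1 rose by 2.01 ± 0.24 (SE; limma adjusted p = 0.00167). The depth behind Slamf1 was the smallest of the 9 genes, at 20, 39 and 49 reads against 203, 213 and 229, which are the smallest whole numbers that the values allow. In KO replicate 2 alone Slamf1 was 5.22-fold above the WT mean. The exact Poisson 95% intervals, which cover counting error only, ran up to 3.05 FPKM in the WT-labelled libraries and started at 7.17 FPKM in the KO-labelled ones. The coefficient of variation between the WT-labelled libraries was 40.8%, where counting alone gives at most 16.7%. Slamf1 passed in each of the 16 alternatives run (adjusted p = 0.000450 to 0.0488), 2 of which rest on KO replicate 2 for the difference.

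Esam (chromosome 9, 37528078 to 37538319) encodes an adhesion molecule of endothelium, platelets and stem cells. It was at 26.8, 15.8 and 19.4 FPKM in the WT-labelled libraries and at 46.6, 44.1 and 47.8 FPKM in the KO-labelled ones. The groups did not overlap. Esam was the most even of the members in the KO-labelled libraries (coefficient of variation 4.04%, where counting gives 3.41%) and the second most uneven in the WT-labelled ones (27.1%). It rose 2.23-fold by the means, by 1.15 ± 0.17 on the log2 scale (limma adjusted p = 0.00427). With KO replicate 2 alone against the 3 WT-labelled libraries, Esam was 2.13-fold higher. The log2 difference was then 1.09 with a larger SE of 0.28, which rests on 1 library and missed the threshold (limma adjusted p = 0.0910; 0.000762 to 0.0910 over its alternatives). A covariate for whether Ddx3y was above 0 also leaves the difference to KO replicate 2 and gave the same 1.09 (SE 0.25, limma adjusted p = 0.0566). Esam is on the same chromosome as the targeted gene Drd2, 11.8 Mb away.

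Procr (chromosome 2, 155751117 to 155755471) encodes EPCR, the endothelial receptor of protein C, which is retained on stem cells. It was at 31.7, 26.5 and 32.1 FPKM in the WT-labelled libraries and at 39.0, 53.3 and 57.3 FPKM in the KO-labelled ones. The groups did not overlap, though the lowest KO-labelled library was only 1.22-fold above the highest labelled WT. Procr rose 1.66-fold by the means and by 0.70 ± 0.15 on the log2 scale (limma adjusted p = 0.0210). This call was the least stable of the 5. It was lost on leaving out WT replicate 1, 2 or 3 or KO replicate 2 (limma adjusted p = 0.0592, 0.0981, 0.0559 and 0.0623), with no filter (0.0694), without the mean-variance trend (0.0510) and with the Ddx3y covariate (0.0889), and spanned 0.00851 to 0.0981 over its 16 alternatives. In KO replicate 2 alone Procr was 1.77-fold above the WT mean.

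Flt3 (chromosome 5, 147330741 to 147400489) encodes the receptor tyrosine kinase for FLT3 ligand, gained as progenitors turn to the lymphoid and myeloid lineages. It was at 94.0, 77.7 and 76.6 FPKM in the WT-labelled libraries and at 31.8, 34.4 and 38.6 FPKM in the KO-labelled ones. The groups did not overlap, and the lowest WT-labelled library stood 1.98-fold above the highest labelled KO. The mean was 57.8% lower, and the log2 difference was -1.22 ± 0.12 (limma adjusted p = 0.000567), the 247th largest in size of the 11371 tested. With 1626 to 4554 reads per library, counting alone would give a coefficient of variation of at most 1.59% in the WT group and 2.39% in the KO group, against 11.8% and 9.89% observed. In KO replicate 2 alone Flt3 was at 0.416 of the WT mean. Flt3 passed in each of the 16 alternatives (limma adjusted p = 7.51e-05 to 0.0191).

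Cd34 (chromosome 1, 194938819 to 194961279) encodes a sialomucin that is absent from most adult mouse long-term stem cells and present on the progenitors after them. It was the highest member by FPKM, at 675, 691 and 659 FPKM in the WT-labelled libraries and at 460, 366 and 406 FPKM in the KO-labelled ones. Its place among genes depends on the length used. The values imply 2621 bases at the fewest reads, against 7290 exon bases in GENCODE M21. Of the genes above 0 in a library, 99.2 to 99.7% (rounded) were at or below Cd34 by FPKM. The groups did not overlap, and the mean was 39.2% lower (log2 difference -0.72 ± 0.10, limma adjusted p = 0.00420). The spread between libraries was 2.39% in the WT-labelled ones and 11.5% in the KO-labelled ones. In KO replicate 2 alone Cd34 was at 0.542 of the WT mean. Cd34 passed in each of the 16 alternatives (limma adjusted p = 0.000449 to 0.0346). Of its annotated exon bases, 148 lie on an antisense gene, Gm16897, whose reads cannot be told from those of Cd34 there by an unstranded kit, and Gm16897 was at most 1.54 FPKM.

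Cd48 (chromosome 1, 171682009 to 171705258) encodes a lipid-anchored SLAM family protein that progenitors carry and stem cells lack. It was at 150, 195 and 173 FPKM in the WT-labelled libraries and at 202, 139 and 200 FPKM in the KO-labelled ones. The groups overlapped: KO replicates 1 and 3 lay above all 3 WT-labelled libraries, and KO replicate 2 below all 3. The log2 difference was 0.05 with a 95% interval of -0.31 to 0.40 (limma adjusted p = 0.878), so changes of up to 1.32-fold upward or to 0.808 of the WT level lie inside it. KO replicate 2 was at 0.804 of the WT mean. KO replicates 1 and 3 are also the libraries without Ddx3y and with high Igkc. The part of these in the level of Cd48 was not tested.

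Cd27 (chromosome 6, 125232622 to 125237010) encodes the receptor for CD70. It was at 98.7, 112 and 113 FPKM in the WT-labelled libraries and at 103, 83.3 and 95.9 FPKM in the KO-labelled ones. The groups overlapped through KO replicate 1, and the log2 difference was -0.20 with an interval of -0.44 to 0.04 (limma adjusted p = 0.271). It was -0.12 without KO replicate 2 and -0.37 with KO replicate 2 alone, in which Cd27 was at 0.771 of the WT mean, and neither passed (limma adjusted p = 0.544 and 0.123). Its gene lies 223 kb from Cd9.

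Cd9 (chromosome 6, 125460266 to 125494791) encodes the tetraspanin CD9, which is enriched on stem cells and platelets. It was at 46.3, 54.7 and 56.0 FPKM in the WT-labelled libraries and at 70.9, 65.2 and 62.7 FPKM in the KO-labelled ones. The groups did not overlap, with a gap of 1.12-fold, yet Cd9 missed the threshold (log2 difference 0.34 ± 0.11 SE, interval 0.10 to 0.58, limma adjusted p = 0.0751). It missed it in all 16 alternatives as well (adjusted p = 0.0599 to 0.281). In KO replicate 2 alone Cd9 was 1.25-fold above the WT mean. The groups of 6 of the 9 members did not overlap, as was so for 32.8% of all genes tested.

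Ly6a (chromosome 15, 74994877 to 74998031) encodes Sca1, a lipid-anchored protein by which the cells were sorted. It was at 126, 129 and 110 FPKM in the WT-labelled libraries and at 161, 123 and 114 FPKM in the KO-labelled ones. Only KO replicate 1 lay above the WT-labelled libraries. The log2 difference was 0.11 with an interval of -0.19 to 0.42 (limma adjusted p = 0.636). In KO replicate 2 alone Ly6a was at 1.01 times the WT mean. Ly6a has close relatives in the Ly6 family, and the sources used here do not say how reads shared between them were counted.

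**Figure D2:**
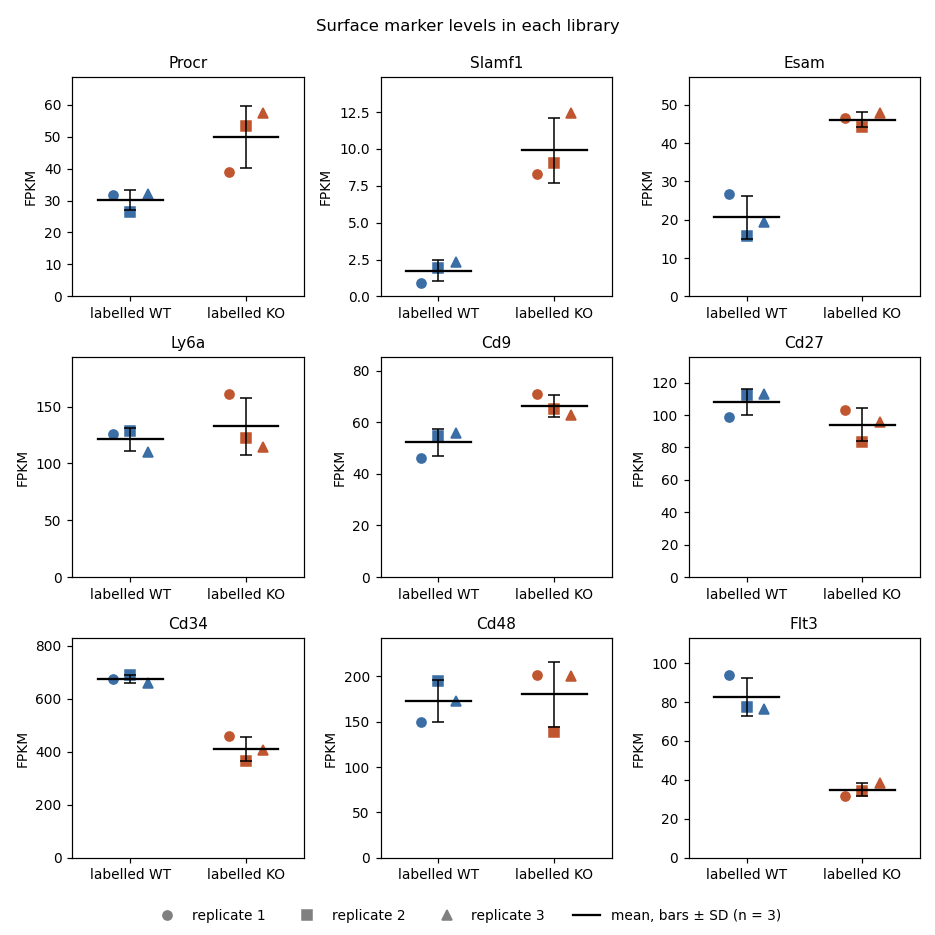
FPKM of each of the 9 markers in each library, with 1 point per library, the group mean as a line and bars of ± SD (n = 3). The points of Procr, Slamf1, Esam and Cd9 labelled KO all lie above the WT-labelled ones. Those of Cd34 and Flt3 all lie below, and those of Ly6a, Cd27 and Cd48 are mixed.

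The order of the levels by FPKM changed most for Flt3. For Slamf1, Ly6a, Cd34 and Flt3 the implied lengths differ from the GENCODE M21 exon lengths, so the places given here depend on the lengths used. In the WT-labelled libraries the order by mean FPKM was Cd34, Cd48, Ly6a, Cd27, Flt3, Cd9, Procr, Esam and Slamf1. In the KO-labelled ones Flt3 moved from the fifth to the eighth place, below Cd9, Procr and Esam, and the other 8 kept their order among themselves. Neighbours whose ranges overlapped were Ly6a with Cd27 and Procr with Esam in the WT-labelled libraries, and Cd48 with Ly6a and Procr with Esam in the KO-labelled ones. Overlapping ranges do not show equal levels: within each WT-labelled library Procr was above Esam. Slamf1 was the lowest in both groups. In the WT-labelled libraries only 27.4 to 39.7% of genes above 0 were at or below it, against 61.3 to 66.8% in the KO-labelled ones.

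Ratios of 2 members within a library do not depend on how libraries are scaled. The ratio of Slamf1 to Cd48, the pair whose proteins are stained together to find stem cells, was 0.00628, 0.0100 and 0.0133 in the WT-labelled libraries and 0.0410, 0.0652 and 0.0620 in the KO-labelled ones. The mean ratio was 5.68 times higher, and 4.81 to 6.88 times higher with any 1 library left out. By the means, Slamf1 alone was 5.72-fold and Cd48 alone 1.04-fold, so this ratio repeats the change of Slamf1. The ratio of Procr to Flt3 was 0.337, 0.341 and 0.419 in the WT-labelled libraries and 1.23, 1.55 and 1.48 in the KO-labelled ones. By FPKM, Flt3 was thus the higher of this pair in every WT-labelled library and the lower in every KO-labelled library. The side of 1 on which a ratio lies depends on the gene lengths used. The FPKM values of Flt3 imply 7760 bases at the fewest reads, against 6176 exon bases in GENCODE M21. The same turn held for Esam and Flt3, with ratios of 0.204 to 0.285 against 1.24 to 1.47. Cd34 and Flt3 both fell, and their ratio was 8.23 ± 0.915 in the WT-labelled libraries and 11.9 ± 2.25 in the KO-labelled ones, with no overlap between the groups.

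**Figure D3:**
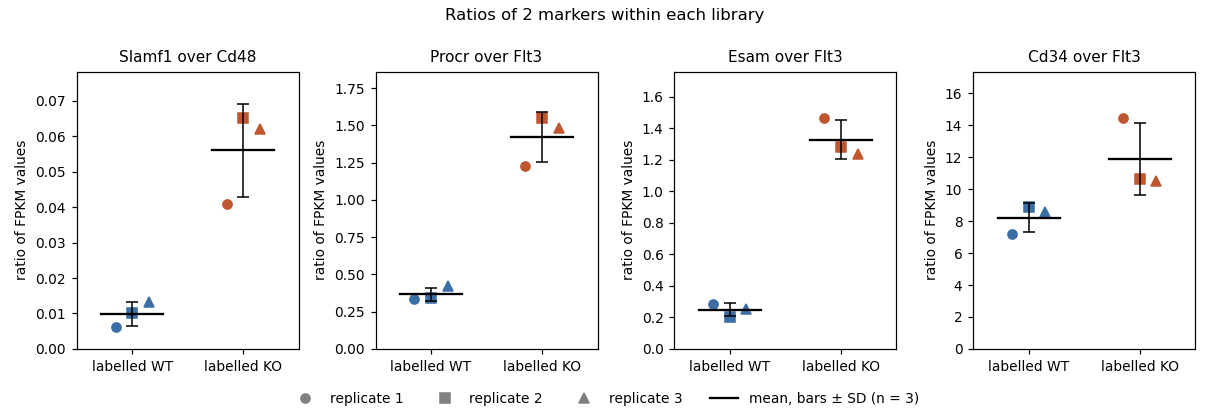
Ratio of the FPKM values of 2 markers within each library, with 1 point per library, the group mean as a line and bars of ± SD (n = 3). The ratios of Procr and of Esam to Flt3 lie below 1 in the 3 WT-labelled libraries and above 1 in the 3 labelled KO. The position relative to 1 depends on the gene lengths behind the FPKM values.

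The SLAM family genes around Slamf1 and Cd48 moved in different directions. The SLAM receptors sit in a cluster, in which 7 genes from Cd244 to Slamf6 span 394 kb of chromosome 1 (171559193 to 171953170), with Cd48 and Slamf1 61.9 kb apart. Ly9, which encodes CD229 and is carried by progenitors, fell from 17.9 ± 1.05 to 9.41 ± 0.723 FPKM (log2 difference -0.86 ± 0.12, limma adjusted p = 0.00355). Cd244, whose protein binds CD48, fell from 11.2 ± 0.910 to 5.15 ± 0.865 FPKM (-0.99 ± 0.15, limma adjusted p = 0.00534). Cd84, a self-binding SLAM receptor also found on platelets, rose from 8.10 ± 1.08 to 12.5 ± 1.62 FPKM (limma adjusted p = 0.0408). The Cd84 call was lost in 12 of 16 alternatives, among them each of the 6 that leave out 1 library (adjusted p = 0.0548 to 0.137). With the Ddx3y covariate the log2 differences of Ly9 and Cd244 were -0.77 and -0.90 with larger SEs of 0.17 and 0.22, and both missed the threshold (adjusted p = 0.0505 and 0.0714). With KO replicate 2 alone Cd244 was at the same -0.90 and missed it too (adjusted p = 0.0510). The other 4 SLAM receptors and 3 adaptors listed were below the filter. The adaptor gene Sh2d1a, whose product links CD150 to signalling in lymphocytes, was at 0 in all 6 libraries.

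**Figure D4:**
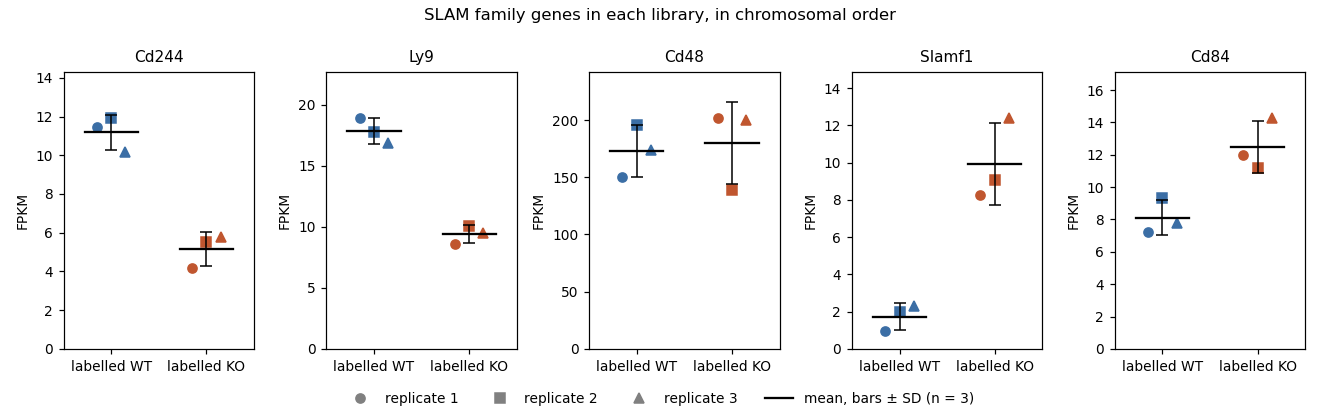
FPKM in each library of the 5 SLAM family genes that passed the filter, from left to right in chromosomal order, with 1 point per library, the group mean as a line and bars of ± SD (n = 3). The points labelled KO lie below the WT-labelled ones for Cd244 and Ly9, above them for Slamf1 and Cd84, and on both sides of them for Cd48.

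Ligands and partners of the members were mostly low or did not pass the test. Cd70, the ligand of CD27, and Proc, which encodes the protein C that EPCR binds, were at 0 in every library. Flt3l, the gene of FLT3 ligand, was at 0.749 ± 0.0514 FPKM in the WT-labelled libraries and 1.16 ± 0.271 FPKM in the KO-labelled ones, with a mean over all libraries below the filter. F2r, which encodes the thrombin receptor PAR1 that works with EPCR, was at 37.7 ± 2.97 and 45.3 ± 12.0 FPKM (limma adjusted p = 0.440), and Thbd, the thrombomodulin gene, at 25.6 ± 5.38 and 16.0 ± 4.45 FPKM (limma adjusted p = 0.0695). Of 7 partner genes tested, 1 fell (Cd244) and none rose. Without KO replicate 3, 3 fell and 1 rose, and with KO replicate 2 alone none fell.

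Relatives of CD9 and Sca1 were taken as gene families. Of 20 tetraspanin and tetraspanin partner genes tested, 5 rose and 1 fell, where 5.48% of all genes tested were higher and 5.43% lower, with a median log2 difference of 0.19. Tspan33 rose from 3.61 ± 0.543 to 11.3 ± 2.41 FPKM (limma adjusted p = 0.00267) and Tspan8 from 1.61 ± 0.161 to 6.47 ± 2.39 FPKM (limma adjusted p = 0.00896). Cd63, a tetraspanin of lysosomes and granules, rose from 288 ± 3.65 to 456 ± 68.3 FPKM (limma adjusted p = 0.0107). Tspan5 fell from 18.3 ± 3.54 to 8.61 ± 1.79 FPKM (limma adjusted p = 0.0101). Without WT replicate 2 the calls of Cd63 and Tspan5 were lost (adjusted p = 0.0586 and 0.0548), and 2 of the list rose. Leaving out any of WT replicates 1 and 3 and KO replicate 1 left 3 that rose, as did no filter, the replicate block and no mean-variance trend. With KO replicate 2 alone 3 rose and none fell (Tspan5 at -1.15, adjusted p = 0.0594). With the Ddx3y covariate, 2 rose and none fell. Of 5 tested Ly6 genes other than Ly6a, 1 rose (Ly6k, on 3 to 32 reads per library; its call was lost in 10 of 15 alternatives), and Ly6e, the most abundant, was at 561 ± 26.9 and 481 ± 113 FPKM (limma adjusted p = 0.341).

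Other surface proteins that part the LSK gate were taken as a pair of lists, chosen with earlier results of these data known. Of 13 tested genes whose proteins are reported higher on stem cells, 4 rose and none fell. Of all genes tested, 5.48% were higher and 5.43% lower. The median log2 difference of the 13 was 0.33. The 4 were Jam3, Cd63, Tek and Cd81, of which Cd63 and Cd81 were also counted among the tetraspanins above. Jam3, an adhesion molecule, rose from 2.48 ± 0.366 to 6.15 ± 1.18 FPKM (limma adjusted p = 0.0101), and Tek, the angiopoietin receptor TIE2, from 4.29 ± 0.835 to 9.10 ± 2.03 FPKM (limma adjusted p = 0.0192). Cd81 rose from 223 ± 6.46 to 281 ± 15.3 FPKM (limma adjusted p = 0.0418), and its call was lost in 10 of 16 alternatives. The call of Jam3 was lost when WT replicate 2 was left out (adjusted p = 0.0545). That of Tek was lost on leaving out WT replicate 2 or 3 or KO replicate 1 (adjusted p = 0.0878, 0.0724 and 0.0649). Itga2b, the gene of CD41, was at 28.1 ± 6.58 and 28.3 ± 4.52 FPKM (limma adjusted p = 0.949). The limma count of 4 became 0, 2 and 2 without WT replicates 2 and 3 and KO replicate 1, 2 with no filter, 1 without KO replicates 1 and 3 together and 0 with the Ddx3y covariate, and was 5 with limma voom on recovered reads.

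Of 16 tested genes whose proteins are reported higher on multipotent or later progenitors, 9 fell and none rose. The shares over all genes are those given above. The median log2 difference of the 16 was -0.54. Ly9 and Cd244 are among these 9 and were also counted among the SLAM genes above, and Cd244 among the partners. Cd69, an early activation antigen, went from 185, 194 and 266 FPKM in the WT-labelled libraries to 78.8, 60.3 and 61.6 FPKM in the KO-labelled ones (log2 difference -1.66 ± 0.16, limma adjusted p = 0.000508). Il1r1, the interleukin 1 receptor, and Cd52 fell by 1.53 and 1.26 on the log2 scale (limma adjusted p = 0.000712 and 0.00175), and all 3 passed in each of their 16 alternatives. Il7r (the interleukin 7 receptor) and Vcam1 did not pass, at 1.18 ± 0.330 and 2.07 ± 0.910 FPKM in the WT-labelled libraries and 1.05 ± 0.834 and 2.43 ± 1.42 FPKM in the KO-labelled ones. The count of 9 was 6 without WT replicate 1 or 3, and 7 without WT replicate 2 or KO replicate 1. It was also 7 with no filter and with the replicate block, and 5 with the Ddx3y covariate. Of the 9 calls, that of Csf3r was lost in 10 of 16 alternatives and that of Ccr9 in 9 of 15.

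**Figure D5:**
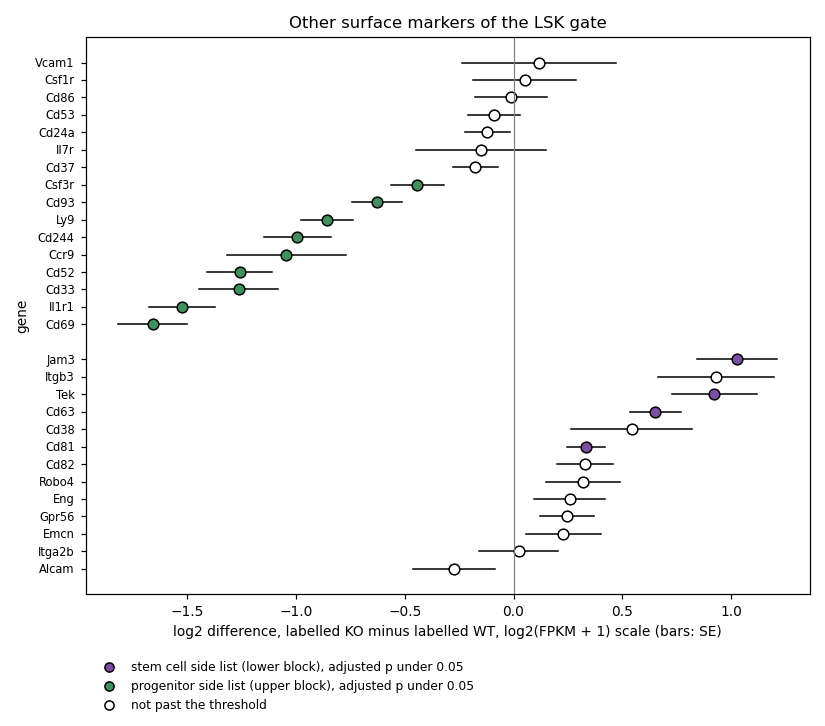
Difference between the KO-labelled libraries and the WT-labelled ones for the tested genes of the stem cell side list (lower block) and the progenitor side list (upper block), on the log2(FPKM + 1) scale with bars of ± SE. Filled points passed an adjusted p of 0.05: 4 of 13 in the lower block, all to the right of 0, and 9 of 16 in the upper block, all to the left.

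Several members are also made by other cells, so markers of those cells are given beside them. Procr, Esam, Cd34, Cd9 and Ly6a are made by endothelium. Of 8 endothelial markers, Lyve1 was at 0 in all libraries, and Cdh5, Kdr and Ptprb, of which Cdh5 is the defining cadherin, stayed under 1 FPKM in all. Tie1 and Plvap rose, and Pecam1 and Egfl7 did not pass. The summed level was 90.8 to 99.4 FPKM in the WT-labelled libraries and 93.1 to 107 FPKM in the KO-labelled ones. Esam, Cd9 and Slamf1 are made by megakaryocytes. Of 6 megakaryocyte markers 5 were tested and 2 rose (Pf4 and Gp1bb), where 5.48% of all genes tested were higher. Gp6 was at 0 in all but 1 library. The summed level, most of it Pf4, was 69.9 to 116 FPKM in the WT-labelled libraries and 122 to 209 FPKM in the KO-labelled ones. Gp1ba, Gp9 and Ppbp did not pass. These sums did not overlap. The same held for the lineage antigen sums above, for the stromal, T and NK, and erythroid sums below, and for 32.8% of single genes tested. The part of megakaryocytes in the rise of Esam and Slamf1 was not tested.

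For cells that carry CD9, CD27 or CD48, the sums were as follows. Of 7 plasma and B cell markers none passed, and the sum was 348 to 369 FPKM in the WT-labelled libraries and 3616, 162 and 1555 FPKM in KO replicates 1 to 3, most of it Igkc in KO replicates 1 and 3. Of 8 mast cell markers 6 were tested and 2 rose (Cma1 and Tpsb2), with sums of 52.0 to 88.5 and 64.3 to 130 FPKM. Of all genes tested, 5.48% were higher and 5.43% lower. Of 6 T and NK cell markers 2 were tested, and Klrb1c rose and Nkg7 fell. Cd3g was at 0 in all libraries. The sums were 353 to 417 and 190 to 295 FPKM, nearly all of it Nkg7. Stromal markers, listed because stroma carries Sca1, summed to 25.4 to 32.8 and 12.1 to 14.7 FPKM. Of the 8, 4 were tested and 2 fell (Cxcl12 and Pdgfrb). Of 8 neutrophil markers none of the 6 tested passed, with sums of 115 to 238 and 26.3 to 158 FPKM. Of 4 erythroid markers none of the 3 tested passed, with sums of 308 to 556 and 565 to 1075 FPKM. The part of these cells in the levels of the 9 members was not tested.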

How the data were processed

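The deposited table held FPKM values, 1 column for each of 6 libraries, as the authors scaled them. Per the labels' protocols, RNA from sorted cells was amplified with the SMART-Seq v4 kit and made into libraries with Nextera XT, which does not mark strand. Per the submitters' processing notes, the study used build mm10 and, as tools, HTSeq 0.6.1, TopHat2 2.1.1, DESeq2 1.18.1 and bcl2fastq 2.19.1.403, listed without roles, and an annotation is named in none of the sources used here.

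Within a gene, values of different libraries stood as whole-number ratios after 1 divisor per library, which held in each of the 17183 genes detected in at least 2 libraries (relative tolerance 1e-08). Reads were scaled to GENCODE M21 exon lengths where these fitted. For Procr, Esam, Cd9, Cd27 and Cd48 the implied length equalled the exon length. For Slamf1, Ly6a, Cd34 and Flt3 reads are the smallest whole numbers and lower bounds.

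The test was limma 3.58.1 (R 4.3.3), with eBayes and its mean-variance trend, without a replicate block, on log2(FPKM + 1). It was two-sided and was tested on simulated data. Alternatives were other pseudocounts and filters, TPM scaling, a replicate block, a covariate for Ddx3y above 0 or not, voom on recovered reads, and leaving out libraries. Members and lists were chosen with earlier results of these data known. Named were all members, Kit, Drd2, Drd3, Ddx3y, Xist and Igkc. Also named were up to 4 called genes of a list by smallest p, and genes of lists with 12 or fewer tested. Other genes given with values or lost calls (Itga2b, Il7r, Vcam1, Csf3r, Ccr9) were chosen after their values were seen. A few genes of the lists are not reported here and are in no count of a list or sum. Lists were matched by exact symbol, with older symbols (Cd244, Gpr56, Igj) where the table used them. Python 3.11.15, numpy 2.4.6, pandas 2.3.3, scipy 1.17.1 and matplotlib 3.10.9 were used.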

Additional observations from a re-analysis of the deposited data

How the results depend on the processing

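Of 16 alternatives, 15 left 4 or 5 of the 9 members called, and with the Ddx3y covariate, where KO replicate 2 alone sets the difference, 3 were called and 1 was called higher. The difference rests on 1 KO-labelled library in 2 of the 16, with the spread from other libraries. In the other 14, Slamf1, Cd34, Flt3 and Esam were called in all 14 and Procr in 8, and in those 2 Esam was called in neither. Leaving out 1 library in turn gave 4 to 5 called members, 2 to 3 of them higher and 2 to 2 lower. Cd48 and Ly6a, not called in any, changed sign: Cd48 was at -0.30 with the Ddx3y covariate and without KO replicates 1 and 3 together, and at -0.050, -0.044 and -0.037 without WT replicate 1, KO replicate 1 and KO replicate 3, and Ly6a at -0.034 without KO replicate 1; leaving out 1 library gave -0.050 to 0.22 for Cd48 and -0.034 to 0.21 for Ly6a on the log2 scale. The 1240 genes called in all (623 higher and 617 lower) became 588 (335 and 253) with no filter, where 19373 genes were tested, 373 (214 and 159) with the Ddx3y covariate and 514 (265 and 249) without KO replicates 1 and 3 together. Leaving out 1 library gave 370 to 1598 (212 to 764 higher, 158 to 834 lower), with 531, 370 and 509 for WT replicates 1, 2 and 3 and 824 for KO replicate 1. With the replicate block 805 were called, 369 of them lower, and 5 of the 9 members. Same-numbered libraries did not deviate together (correlations of -0.03, 0.05 and -0.12), and the labels tie no numbers together, so the block is no pairing. Depth limits Slamf1 most, with 20 reads in WT replicate 1.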
